A study of Mus musculus with 40 samples.

Results

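The genes described here encode proteins that break down, take up or sense ATP and adenosine outside the cell. They were taken by symbol and are Entpd1, Nt5e, Ada, Dpp4, Adora2a, Adora2b, Adora3, P2rx4, P2rx7 and Slc29a1. Each of the 10 symbols matched a single protein-coding gene among the 45706 genes of the deposited tables, and all were measured in 40 RNA-seq libraries of sorted mouse cells, 4 in each of 10 groups.

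ATP released by stressed or dying cells acts as a danger signal on P2X and P2Y receptors and promotes inflammation. The surface enzyme CD39 (Entpd1) removes phosphates from ATP to give AMP, and CD73 (Nt5e) turns AMP into adenosine, which restrains T cells and many myeloid cells through its own receptors. Adenosine deaminase (Ada), which in humans can dock on CD26 (Dpp4), and the nucleoside transporter ENT1 (Slc29a1) clear adenosine again. The study sorted these cells to ask how neutrophils in colon tumors restrain T cells, and CD39 and CD73 were among the suppressive factors it considered. In its co-cultures of T cells with tumor neutrophils, blocking adenosine signaling did not restore T-cell proliferation. The paper proposes that this pathway is not a main driver of the suppression there.

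Tumor-bearing mice carried Cdx2CreERT2 - Apc fl/fl, in which a Cre recombinase expressed from the Cdx2 promoter of intestinal epithelium deletes Apc after tamoxifen. They received 1 intraperitoneal dose of tamoxifen at 25 mg/kg at 8 to 10 weeks of age. Neutrophils, monocytes, epithelial cells and stromal cells were sorted from their colon tumors, and neutrophils and monocytes from their blood, which gave 24 libraries. The other 16 libraries were blood neutrophils, blood monocytes, colon epithelial cells and colon stromal cells of healthy C57Bl6 mice. For these mice the labels list no transgene, tamoxifen or age. The strain labels of the tumor-bearing libraries run from C57Bl6/Sv129 to C57Bl6/Sv152 with a different number in each library, so what was crossed is uncertain. Tumor, strain background, transgene, tamoxifen and any difference in age cannot be told apart wherever tumor-bearing and healthy mice were compared. Neutrophils were gated as CD11b+ Ly6G+ Ly6C-low and monocytes as CD11b+ Ly6G- Ly6C-high cells, both CD45+ EpCAM- MHCII-. Epithelial cells were CD45- EpCAM+, and stromal cells were CD45- EpCAM-, so the stromal gate holds every non-epithelial, non-leukocyte cell type. Some blood libraries carry the names of 2 animals, so 1 library is not always 1 mouse, and p-values measure the spread between libraries.

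Counts on genes totaled 10716879 to 38002138 per library, and mitochondrial genes took 5.34% to 83.9% of them. Tumor neutrophils and tumor monocytes were well separated, with a summed level over 7 neutrophil markers of 1921 to 12420 RPKM in the former and 36.1 to 69.0 RPKM in the latter. Some libraries stood apart from their group on marker lists. Tumor neutrophil replicate 1 had a summed level of 165.9 RPKM over 10 epithelial markers, against 12.3 to 35.9 in the other tumor neutrophil libraries and 150.2 to 370.0 in tumor epithelial cells. Tumor stromal replicates 1 and 2 reached 229.2 and 132.5 RPKM on the same list and 4.39 and 3.74 RPKM over 5 endothelial markers, against 111.4 and 121.0 in replicates 3 and 4. Healthy stromal replicate 4 had the lowest endothelial and the highest fibroblast level of its group. Tumor neutrophil replicate 2 had counts on 17220 genes, the fewest of its group, where the others had 24061 to 26268. Healthy epithelial replicate 4 had the highest mitochondrial share of all libraries. Several tests that rest on these libraries are also given without them, and the group means and shares keep all libraries.

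The promoters of Entpd1, Nt5e and Adora2b are shown because these 3 genes were higher in tumor than in blood in neutrophils and in monocytes alike. Each sequence is the 250 bases before a RefSeq start site on GRCm38.p6, all on the plus strand: chr19:40612116-40612365 for the first of the 2 starts of Entpd1, chr9:88327359-88327608 for Nt5e and chr11:62248734-62248983 for Adora2b. In the gene models Entpd1 spans chr19:40612366-40741602, Nt5e chr9:88327197-88372092 and Adora2b chr11:62248984-62266453, all protein-coding and on the plus strand. The model of Nt5e begins upstream of its window. Capitals mark GGGCGG, the core of the site bound by Sp1-type factors, and CCAAT, the box bound by NF-Y, on either strand.

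Entpd1: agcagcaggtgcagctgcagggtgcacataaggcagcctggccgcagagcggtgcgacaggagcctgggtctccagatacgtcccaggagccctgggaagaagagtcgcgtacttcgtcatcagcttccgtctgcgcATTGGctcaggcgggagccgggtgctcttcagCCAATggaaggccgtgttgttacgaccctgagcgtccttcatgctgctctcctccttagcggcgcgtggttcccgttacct
Nt5e: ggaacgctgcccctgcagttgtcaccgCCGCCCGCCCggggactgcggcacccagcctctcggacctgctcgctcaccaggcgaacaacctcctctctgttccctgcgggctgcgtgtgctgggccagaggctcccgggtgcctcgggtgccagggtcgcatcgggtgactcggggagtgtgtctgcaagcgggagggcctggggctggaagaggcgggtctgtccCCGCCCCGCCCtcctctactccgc
Adora2b: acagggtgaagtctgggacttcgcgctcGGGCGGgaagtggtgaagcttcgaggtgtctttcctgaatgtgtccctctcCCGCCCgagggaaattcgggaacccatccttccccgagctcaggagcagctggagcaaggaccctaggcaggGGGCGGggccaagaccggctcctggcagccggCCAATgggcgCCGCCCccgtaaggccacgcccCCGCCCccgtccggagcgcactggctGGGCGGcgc

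GGGCGG matched 4 times in the Nt5e window and 6 times in the Adora2b window, counting overlapping matches, and did not match in the Entpd1 window. CCAAT matched 2 times in the Entpd1 window and 1 time in that of Adora2b. Over all 32851 promoter windows of this length, 32.7% held GGGCGG and 33.8% held CCAAT on either strand. ACGTG, a form of the core that hypoxia-inducible factors recognise, was found in 16.6% of all windows and in none of the 3 shown. The other form of that core, GCGTG, was not counted over all windows, and it does occur in the 3 shown on either strand. TGACG, the core recognised by CREB, was found in 17.8% of all windows and 1 time in the Entpd1 window. Windows were held for 9 of the 10 genes. These are matches of letters, and no binding was measured.

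Levels are given as RPKM, which scales reads by gene length and by mapped reads and so allows genes to be compared with each other. Entpd1 was far more abundant than any other gene of the set, with a mean of 70.5 ± 29.1 RPKM (SD, n = 4) in tumor neutrophils. The next highest mean of the set belonged to Adora2b in tumor monocytes, at 18.4 ± 1.72 RPKM. The remaining 8 genes had no group mean above 6.42 RPKM. Of the summed means of the 4 sorted tumor cell types, neutrophils held 69.8% for Entpd1 and 45.9% for Nt5e, and monocytes held 87.4% for Adora2b, 77.4% for Adora2a, 60.0% for P2rx7 and 57.5% for P2rx4. These shares weigh each cell type equally and say nothing of how many such cells a tumor holds.

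**Figure D1:**
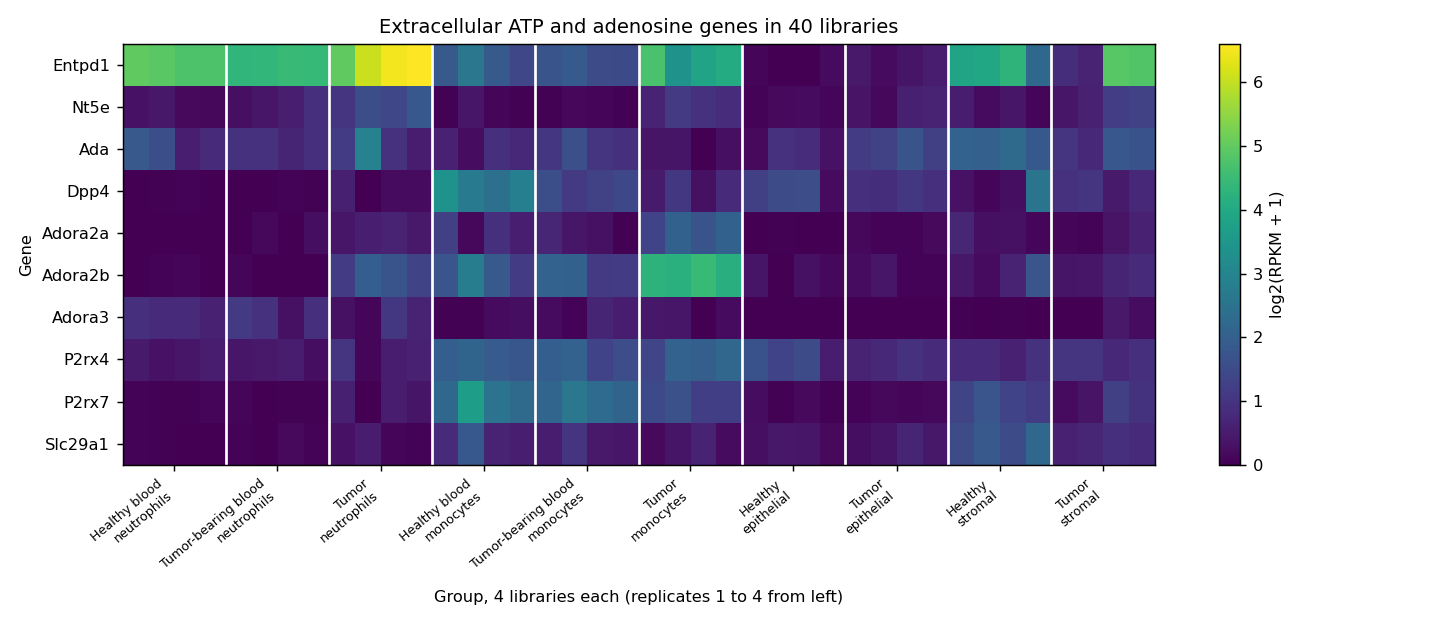
Colors show log2(RPKM + 1) of the 10 genes (rows) in 40 libraries (columns), in 10 groups of 4 set apart by white lines. Entpd1 is bright in all neutrophil groups and in tumor stromal replicates 3 and 4, Adora2b in tumor monocytes, and Dpp4 and P2rx7 in blood monocytes.

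Entpd1 encodes CD39, the first enzyme of the cascade. In neutrophils its level was 31.1, 29.1, 25.9 and 26.2 RPKM in healthy blood, 19.2, 19.6, 21.4 and 20.3 RPKM in blood of tumor-bearing mice, and 31.1, 66.5, 88.2 and 96.2 RPKM in tumors. The lowest tumor value was that of replicate 1, the library with epithelial transcripts, and it met the top of the healthy range but not that of tumor-bearing blood. In monocytes Entpd1 was at 2.59, 5.09, 2.64 and 1.64 RPKM in healthy blood, 2.30, 2.64, 1.86 and 1.77 RPKM in blood of tumor-bearing mice and 24.9, 9.53, 13.4 and 15.6 RPKM in tumors. Every tumor monocyte library was thus above every blood monocyte library. Epithelial cells had the lowest levels, 0.0611 ± 0.0648 RPKM in healthy colon and 0.304 ± 0.128 RPKM in tumors. In the order of group means, tumor neutrophils were followed by healthy and tumor-bearing blood neutrophils, tumor monocytes, tumor stroma, healthy stroma, the 2 groups of blood monocytes and the epithelial groups. Neighbours in that order overlapped in their libraries except healthy above tumor-bearing blood neutrophils, and blood monocytes of tumor-bearing mice above tumor epithelial cells.

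Nt5e encodes CD73, which completes the route to adenosine, and was expressed at much lower levels than Entpd1. It was at 0.988, 2.00, 1.67 and 2.55 RPKM in tumor neutrophils and at 0.212, 0.316, 0.471 and 0.897 RPKM in blood neutrophils of tumor-bearing mice. Tumor monocytes had 0.565, 1.18, 0.920 and 0.793 RPKM, and their blood counterparts 0.0339, 0.0948, 0.0590 and 0.0251 RPKM. The tumor and blood libraries did not overlap in either cell type, though in neutrophils the gap between the highest blood and the lowest tumor library was narrow. The mean was 0.904 ± 0.570 RPKM in tumor stroma, 0.356 ± 0.204 RPKM in tumor epithelial cells and at most 0.231 RPKM in the healthy groups. All neighbours overlapped in the order of the group means of Nt5e. Among the other 8 genes, neighbours in that order did not overlap for Dpp4 (healthy above tumor-bearing blood monocytes), Adora2a and Adora2b (tumor above healthy blood monocytes), P2rx7 (blood monocytes of tumor-bearing mice above healthy stroma) and Adora3 (healthy stroma above healthy epithelium), and all other neighbours did. Ada and Slc29a1 had their highest means in healthy stroma, at 3.15 ± 0.554 and 2.52 ± 0.874 RPKM.

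**Figure D2:**
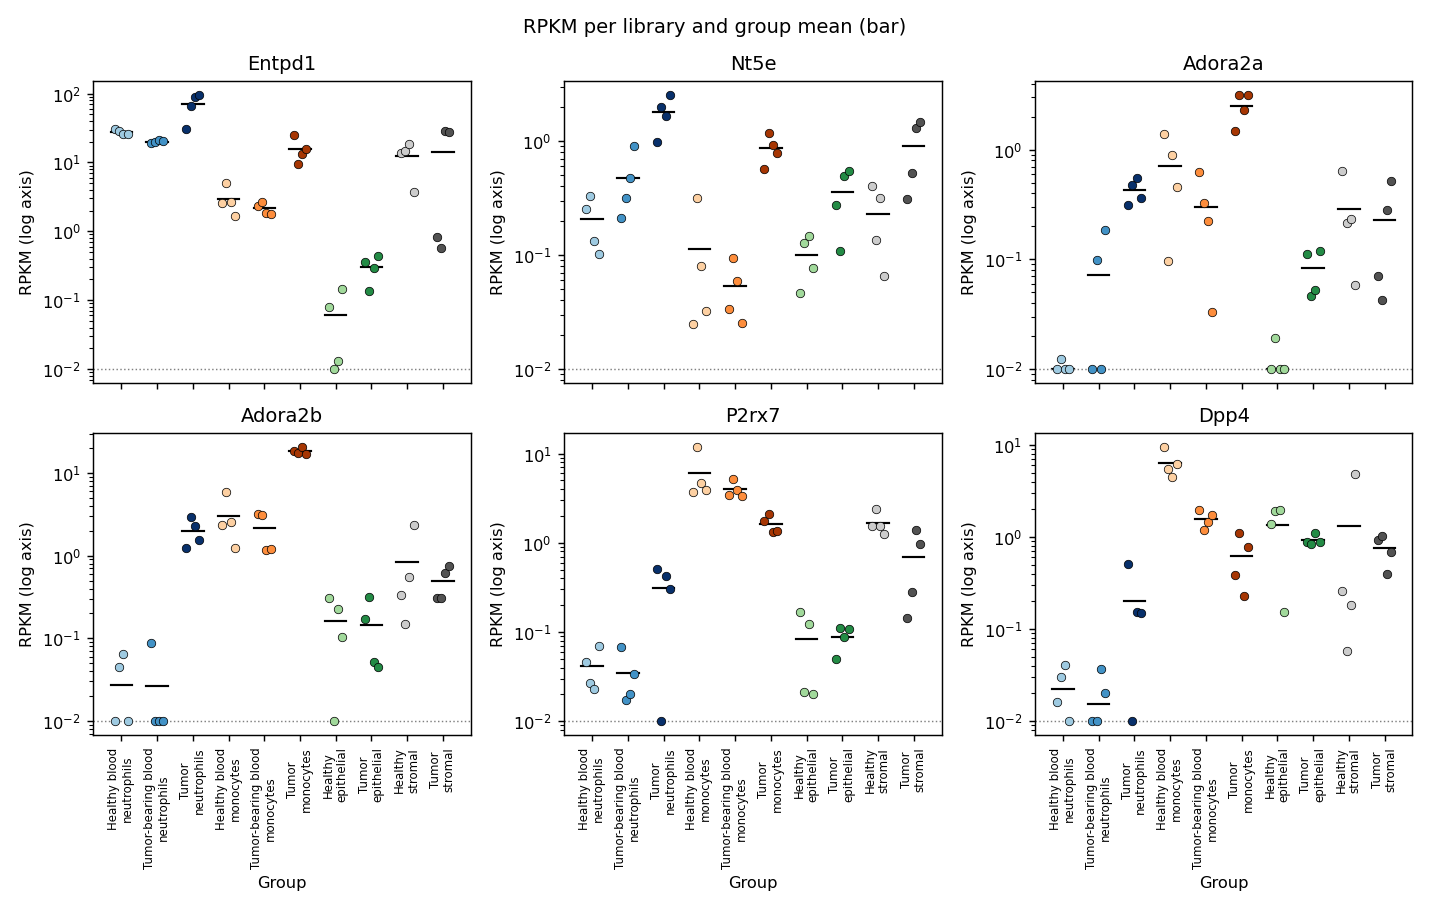
Each panel shows the RPKM of 1 gene on a log axis in each library (points, replicates 1 to 4 from left) of 10 groups, with the group mean as a line; values under 0.01 RPKM are drawn at 0.01. Adora2b and Adora2a are highest in tumor monocytes, and tumor stromal Entpd1 splits into 2 libraries under 1 RPKM and 2 above 27.

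Blood neutrophils were compared with tumor neutrophils of tumor-bearing mice to ask which genes differ once the cells are in the tumor. The 2 enzymes that make adenosine, its receptor Adora2b and the ATP-gated channel P2rx7 were higher in tumor neutrophils. The log2 fold change was 1.91 ± 0.45 (SE, adjusted p = 0.0147) for Entpd1, 2.04 ± 0.57 (adjusted p = 0.0322) for Nt5e, 6.31 ± 1.13 (adjusted p = 0.00385) for Adora2b and 3.02 ± 0.95 (adjusted p = 0.0490) for P2rx7, in edgeR's quasi-likelihood test with Benjamini-Hochberg adjustment over 13674 genes. Calls required an adjusted p under 0.05 together with a log2 fold change beyond 1.5 in either direction, and by this rule 4 of the 10 genes were called, all higher, where 11.9% of all genes tested were called higher and 16.3% in either direction. Libraries did not overlap between the groups in 4 of the 10 genes and in 27.4% of all genes. The median log2 fold change was 2.07 over the 10 genes and 0.11 over all genes tested. The rise of Entpd1 and Nt5e was known before the genes were chosen and is no independent result. Nor are the counts and the median over the 10 genes, which include both.

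Adora2b, a low-affinity adenosine receptor coupled to cyclic AMP, was almost absent from blood neutrophils of tumor-bearing mice, with 13, 1, 0 and 1 counts. Tumor neutrophils had 127, 322, 263 and 182 counts, or 1.25, 2.90, 2.29 and 1.56 RPKM. All tumor libraries were above all blood libraries, and the call held in each of 8 fits that left out 1 library, with log2 fold changes from 5.70 to 8.29. Since 3 of 4 blood libraries held at most 1 count, the size of this change is poorly fixed. P2rx7, the channel opened by high ATP that triggers inflammasome activation, was at 0.507, 0.0101, 0.422 and 0.301 RPKM in tumor neutrophils and at 0.0676, 0.0174, 0.0202 and 0.0334 RPKM in blood neutrophils. The groups overlapped because tumor replicate 2 lay below all blood libraries. The P2rx7 call was kept in 1 of 8 such fits, the one without tumor replicate 2, and the adjusted p was 0.0750 to 0.137 in the fits without any of the other 7 libraries. The same call was lost with no filter on low counts (adjusted p = 0.0770), with the replicate number as a block (adjusted p = 0.136), with limma-voom (adjusted p = 0.109) and with limma on log2(RPKM + 1) or log2(RPKM + 0.1).

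Ada, the deaminase that clears adenosine, was at 1.21, 6.56, 0.904 and 0.431 RPKM in tumor neutrophils and at 0.970, 0.907, 0.601 and 0.852 RPKM in blood neutrophils. Its log2 fold change of 1.91 ± 0.92 (adjusted p = 0.179) came from replicate 2 and was -0.19 without it. Dpp4, Adora2a and Slc29a1 had log2 fold changes of 3.41, 2.69 and 2.11 with adjusted p of 0.114, 0.167 and 0.183 in the same test, and Dpp4 passed without tumor replicate 2 (3.77, adjusted p = 0.0151). The calls of these 3 genes depended on the model, since Dpp4 was called by DESeq2 (3.32, adjusted p = 0.0322), Adora2a by limma-voom and by limma on log2(RPKM + 0.1), and all 3 in 1 fit of all 40 libraries. The 4 tumor libraries had 44 to 87 counts of Adora2a, the high-affinity adenosine receptor, and the blood libraries 0 to 30. Adora3 and P2rx4 had log2 fold changes of -0.71 and 0.50, with adjusted p of 0.561 and 0.616.

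Epithelial transcripts differed between the groups as well, with a summed level over the 10 markers of 12.3 to 165.9 RPKM in tumor neutrophils and 0.663 to 1.56 RPKM in blood neutrophils, and no marker was at 0 counts in the tumor neutrophil libraries. Nor did the groups overlap in 6 macrophage markers, at 4.87 to 13.8 against 1.95 to 4.30 RPKM, in 7 fibroblast markers, at 3.07 to 7.95 against 0.331 to 1.17 RPKM, or in the mitochondrial share of counts, which reached 37.5% in tumor and at most 16.8% in blood neutrophils. The 7 neutrophil markers were lower in tumor neutrophils, at 1921 to 12420 against 15510 to 20230 RPKM. So were 4 platelet markers, at 0.1419 to 1.608 against 2.135 to 40.28 RPKM. The part of these measures in the differences between tumor and blood neutrophils was not tested. In tumor epithelial cells themselves, Entpd1 was at 0.304, Nt5e at 0.356, Adora2b at 0.146 and P2rx7 at 0.0891 RPKM, each below its mean in tumor neutrophils. In tumor monocytes Entpd1 (15.9 RPKM) and Nt5e (0.865 RPKM) were also below that mean, but Adora2b (18.4 RPKM) and P2rx7 (1.64 RPKM) were above it. In tumor stroma P2rx7 (0.694 RPKM) was above it, and Entpd1 (14.3 RPKM), Nt5e (0.904 RPKM) and Adora2b (0.495 RPKM) were below. Without tumor neutrophil replicate 1, which had the most epithelial transcripts, the log2 fold changes were 2.21 for Entpd1 (adjusted p = 0.000280), 2.31 for Nt5e (adjusted p = 0.0208), 6.57 for Adora2b (adjusted p = 0.00697) and 2.79 for P2rx7 (adjusted p = 0.0919). The call of Entpd1 was lost without blood neutrophil replicate 1, 2 or 4, at adjusted p of 0.0575, 0.0603 and 0.0536, and also with the replicate number as a block (1.75, adjusted p = 0.0560) and in 1 fit of all 40 libraries (1.75, adjusted p = 0.110). The call of Nt5e was lost without blood replicate 1, 2 or 3 or tumor replicate 3 or 4, at adjusted p of 0.0525 to 0.0964, with no filter (adjusted p = 0.0514), and by fold with limma on log2(RPKM + 1). Fewer cells with a transcript and less transcript per cell cannot be told apart in these bulk libraries.

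In monocytes, 4 genes were higher in tumors than in blood of tumor-bearing mice, namely both adenosine-making enzymes and both A2 receptors. The log2 fold change was 3.16 ± 0.33 (adjusted p = 0.000135) for Entpd1, 4.25 ± 0.51 (adjusted p = 0.000373) for Nt5e, 3.31 ± 0.67 (adjusted p = 0.00719) for Adora2a and 3.35 ± 0.38 (adjusted p = 0.000259) for Adora2b. These 4 of 10 genes compare with 7.76% of the 15280 genes tested called higher and 11.7% called in either direction. As in neutrophils, the rise of Entpd1 and Nt5e was known before the genes were chosen and is no independent result. Nor are the counts and the median over the 10 genes here. Each of the 4 calls held in all 8 fits that left out 1 library. Libraries did not overlap in 7 of the 10 genes and in 27.2% of all genes. The median log2 fold change over the 10 genes was 0.07, against -0.03 over all genes tested.

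Adora2b was at 18.4, 17.3, 20.8 and 17.1 RPKM in tumor monocytes, 3.20, 3.13, 1.18 and 1.21 RPKM in blood monocytes of tumor-bearing mice and 2.35, 5.83, 2.59 and 1.24 RPKM in healthy blood monocytes. The tumor libraries were close to each other and far above all blood libraries. Adora2a was at 1.5, 3.17, 2.28 and 3.14 RPKM in tumor monocytes, at 0.633, 0.324, 0.224 and 0.0329 RPKM in tumor-bearing blood and at 1.38, 0.0961, 0.897 and 0.461 RPKM in healthy blood. The lowest tumor library thus exceeded the highest healthy blood library only slightly.

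P2rx7 went from 3.43, 5.12, 3.93 and 3.36 RPKM in blood monocytes to 1.77, 2.11, 1.32 and 1.35 RPKM in tumor monocytes. The groups did not overlap, and the log2 fold change was -1.03 ± 0.26 (adjusted p = 0.0188), which is under the fold needed for a call. Ada was at 0.281, 0.304, 0.00929 and 0.211 RPKM in tumor monocytes and at 1.05, 2.06, 0.974 and 0.892 RPKM in blood monocytes. Although these libraries did not overlap either, the log2 fold change of -2.41 ± 0.79 did not pass (adjusted p = 0.0604), and it passed without tumor replicate 3, whose value rests on 1 count (log2 fold change -2.03, adjusted p = 0.0232). With all libraries in, Ada was called lower by DESeq2 (-2.44, adjusted p = 0.00418), limma-voom (-2.89, adjusted p = 0.0324), limma on log2(RPKM + 0.1) (adjusted p = 0.0109) and 1 fit of all 40 libraries (adjusted p = 0.0227). Dpp4 had a log2 fold change of -1.13 ± 0.43 (adjusted p = 0.102), which passed only without tumor replicate 2 (-1.51, adjusted p = 0.0488). The epithelial list reached 1.71 to 34.5 RPKM in tumor monocytes and at most 0.983 RPKM in blood monocytes. Lower in tumor were 5 monocyte markers, at 114.8 to 161.2 against 233.7 to 375.9 RPKM, and 7 neutrophil markers, at 36.1 to 69.0 against 95.28 to 265.4 RPKM. So were 5 erythroid markers, at 0.9108 to 2.602 against 6.112 to 740.4 RPKM. The part of these lists in the differences between tumor and blood monocytes was not tested. The library with the lowest epithelial level, replicate 1, had the highest Entpd1 of the tumor monocytes, and without it the log2 fold change of Entpd1 was 2.83.

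**Figure D3:**
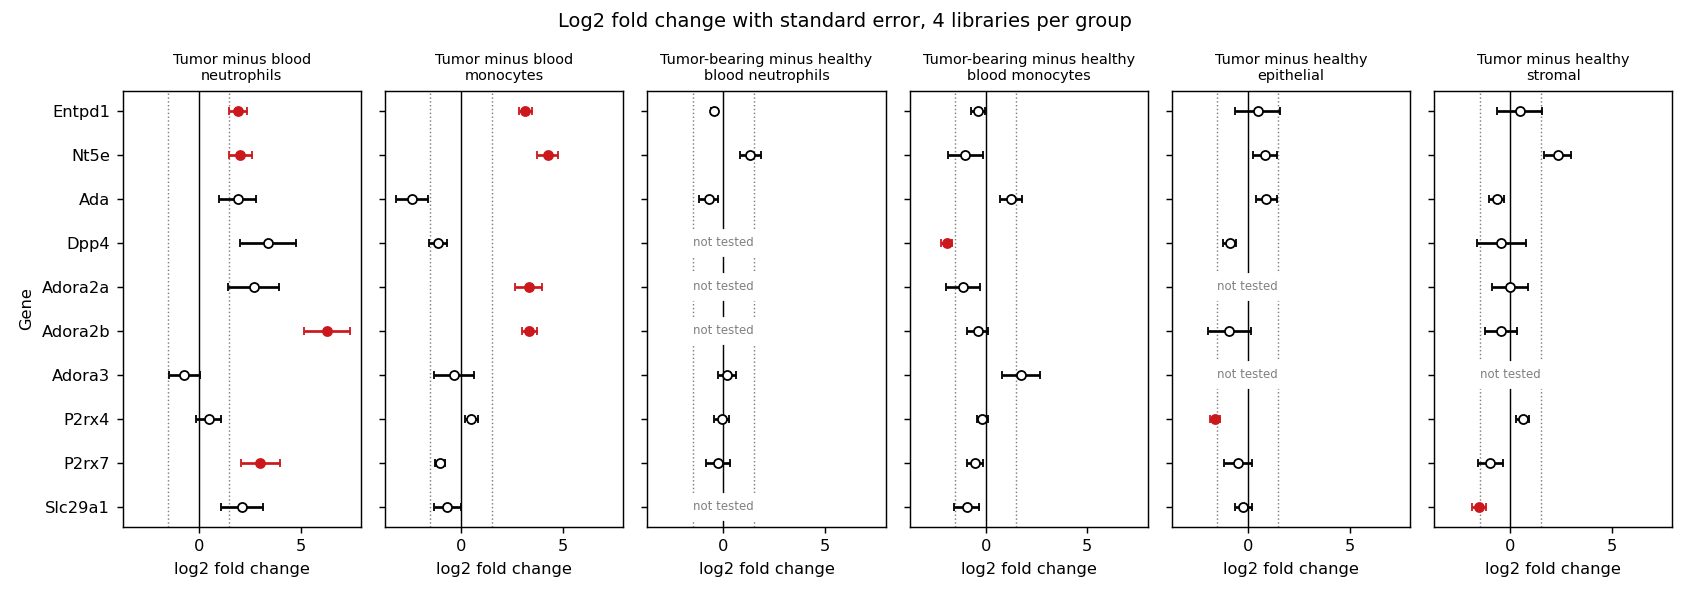
Points are log2 fold changes of the 10 genes in 6 comparisons, first group minus second, with standard errors as bars and 4 libraries per group; red marks called genes, open points genes tested and not called, and dotted lines a log2 fold change of 1.5 in either direction. Entpd1, Nt5e and Adora2b are red in both tumor-against-blood panels, and no gene is red in the panel of blood neutrophils of tumor-bearing against healthy mice.

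Neutrophils and monocytes were then set against each other in the size of the blood-to-tumor difference, by an interaction term fitted to 16 libraries. P2rx7 was the 1 gene of 10 called, with an interaction of 3.91 ± 0.88 on the log2 scale (adjusted p = 0.0201), where 3.97% of 17466 genes were called. Its fitted difference was positive in neutrophils, from a low level, and negative in monocytes. The call was lost without blood neutrophil replicate 2 (adjusted p = 0.0520) and held in the other 15 fits that left out 1 library, including that without tumor neutrophil replicate 1 (3.72, adjusted p = 0.0370). It was also lost with limma-voom (3.52, adjusted p = 0.0547), with limma on log2(RPKM + 1) and with the animals shared by these libraries as a block (3.36, adjusted p = 0.304), a fit that called 114 of 17466 genes and none of the 10. Interactions of 4.20 for Ada (adjusted p = 0.0711), 4.43 for Dpp4 (adjusted p = 0.0765), -2.32 for Nt5e (adjusted p = 0.0908), 2.79 for Adora2b (adjusted p = 0.103) and -1.35 for Entpd1 (adjusted p = 0.161) did not pass. Leaving out 1 library brought 4 of them past the threshold, namely Nt5e and Dpp4 without tumor neutrophil replicate 2 (adjusted p = 0.0495 and 0.00812), Ada without tumor neutrophil replicate 4 (adjusted p = 0.0424) and Adora2b without blood neutrophil replicate 1 (4.92, adjusted p = 0.0142). With all libraries in, DESeq2 called the interaction of Ada (4.46, adjusted p = 0.00540), Dpp4 (4.46, adjusted p = 0.00769) and Adora2b (3.03, adjusted p = 0.0231), and 1 fit of all 40 libraries called those of Ada and Dpp4. For Entpd1 and Nt5e no such alternative passed, and by edgeR their differences between blood and tumor were not shown to differ between the cell types.

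**Figure D4:**
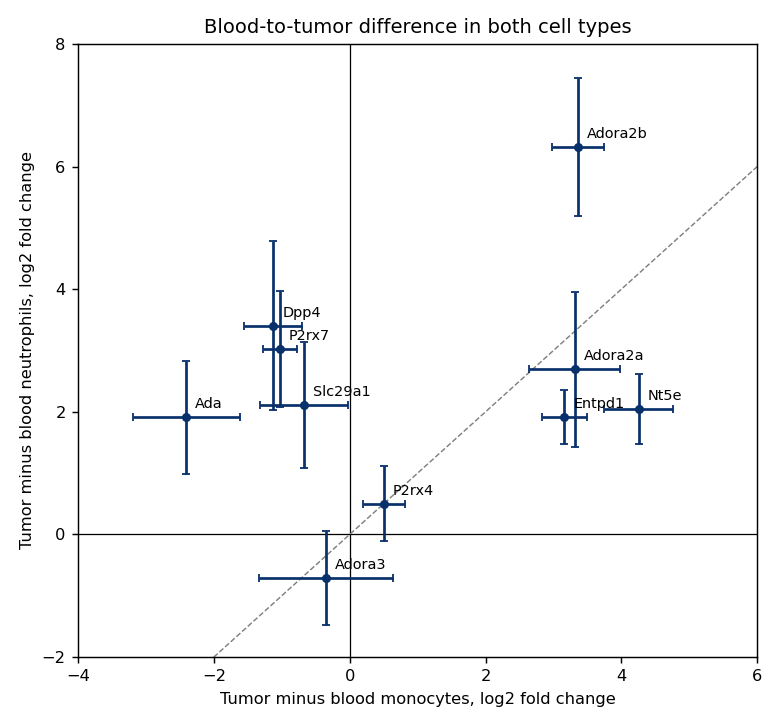
The blood-to-tumor log2 fold change of each gene in neutrophils (vertical) is plotted against that in monocytes (horizontal), with standard errors and a dashed line of equality. Entpd1, Nt5e, Adora2a and Adora2b are above 0 on both axes, whereas P2rx7, Dpp4, Ada and Slc29a1 are above 0 in neutrophils and below 0 in monocytes.

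Blood neutrophils and blood monocytes of tumor-bearing mice differed in 7 of the 10 genes, at a background of 28.4% of 17466 genes. Neutrophils were higher in the adenosine-making enzymes, with log2 fold changes of 4.00 ± 0.43 for Entpd1 (adjusted p = 5.73e-06) and 3.92 ± 0.60 for Nt5e (adjusted p = 0.000126). Monocytes were higher in Adora2b (-5.42 ± 0.79), in both ATP-gated channels P2rx4 (-2.11 ± 0.47) and P2rx7 (-6.07 ± 0.74), in Dpp4 (-5.86 ± 1.14) and in Slc29a1 (-2.46 ± 0.92), as log2 fold changes of neutrophils over monocytes. All 7 had libraries that did not overlap between the cell types, which was so for 48.5% of all genes tested. The call of Slc29a1 (adjusted p = 0.0482) was kept in 5 of 16 fits that left out 1 library and lost without any of the blood monocyte libraries, blood neutrophil replicates 1, 2 and 4, tumor monocyte replicates 1, 2 and 4 or tumor neutrophil replicate 1 (adjusted p = 0.0505 to 0.139), and the other 6 calls held in all 16. With the animals shared by these libraries as a block, Slc29a1 was no longer called (-1.99, adjusted p = 0.154) and the other 6 genes were.

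The tumor cell types came in part from the same animals, as the titles show, so each comparison within tumors was also fitted with the animal as a block. Within tumors, 5 of 10 genes were called between neutrophils and monocytes, where 13.8% of 19026 genes were called. Adora2b (log2 fold change -2.44 ± 0.64, adjusted p = 0.0189) and P2rx4 (-2.03 ± 0.45, adjusted p = 0.00839) were lower in neutrophils, and Ada was higher (4.43 ± 1.00, adjusted p = 0.00886). These 3 calls held without each of the 16 libraries in turn, although the fold of Ada was 2.27 on the log2 scale without tumor neutrophil replicate 2. Entpd1 (2.88 ± 0.94, adjusted p = 0.0485) and Nt5e (1.81 ± 0.55, adjusted p = 0.0361) were higher in neutrophils. Their calls were kept in 3 and 9 of 16 such fits. Entpd1 kept its call without tumor neutrophil replicate 1 or tumor stromal replicate 1 or 2, lost it without any other library (adjusted p = 0.0502 to 0.107), and had a log2 fold change of 3.14 (adjusted p = 6.43e-05) without all 3 of those libraries. Nt5e lost its call without tumor neutrophil replicate 2, 3 or 4 or any tumor monocyte library (adjusted p = 0.0528 to 0.130). With the animal as a block, Adora2b (-2.61, adjusted p = 0.0479) and P2rx4 (-2.32, adjusted p = 0.0490) stayed called, and Entpd1 (2.69, adjusted p = 0.212), Nt5e (1.45, adjusted p = 0.198) and Ada (3.78, adjusted p = 0.0764) did not. Adora2a, with -1.84 ± 0.69 (adjusted p = 0.0787), passed only without tumor neutrophil replicate 2 (-2.36, adjusted p = 0.0427).

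Tumor neutrophils exceeded tumor epithelial cells in 6 of 10 genes, where 17.6% of all genes were called higher and 21.6% in either direction. The largest were Adora3 (log2 fold change 9.0 ± 1.71) and Entpd1 (8.79 ± 1.23), followed by Adora2b (4.61 ± 0.72), Nt5e (3.36 ± 0.58), Adora2a (3.23 ± 0.74) and P2rx7 (2.45 ± 0.78), and all but P2rx7 were called in every fit without 1 library. P2rx7 was not called without tumor epithelial replicate 1, 3 or 4 or tumor neutrophil replicate 3 or 4 (adjusted p = 0.0613 to 0.0863) or with the animal as a block (adjusted p = 0.0806). Dpp4 was not called, and passed as lower in neutrophils only without tumor neutrophil replicate 2 (-1.54, adjusted p = 0.0467). Tumor monocytes differed from epithelial cells in 8 of 10 genes, against 29.1% of all genes. Adora3 (7.10 ± 1.63), Adora2b (7.05 ± 0.80), Entpd1 (5.92 ± 1.09), Adora2a (5.07 ± 0.80), P2rx7 (4.37 ± 0.85), P2rx4 (2.18 ± 0.45) and Nt5e (1.55 ± 0.55) were higher and Ada (-2.77 ± 0.93) was lower in monocytes. Nt5e lost its call in 7 of 16 fits without 1 library, and Ada in 6. Nt5e lost it without tumor epithelial replicate 1, 2 or 3, tumor monocyte replicate 2, 3 or 4 or tumor neutrophil replicate 2, by adjusted p (up to 0.104) or by fold (down to 1.28 on the log2 scale). Ada lost it without tumor epithelial replicate 1, 2 or 3 or tumor monocyte replicate 1, 3 or 4 (adjusted p = 0.0518 to 0.0676). With the animal as a block, Nt5e was the 1 gene of the 8 that was no longer called (1.58, adjusted p = 0.117). Adora3 had at most 1 count in each tumor epithelial library, so its folds over these cells are not fixed by the data.

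Stromal Entpd1 fell into 2 levels within the tumor, at 0.830 and 0.564 RPKM in replicates 1 and 2 and 28.6 and 27.3 RPKM in replicates 3 and 4. In healthy stroma it was at 13.5, 14.4, 18.5 and 3.70 RPKM. The library low in Entpd1 was in each case also low in endothelial markers, whose summed level was 98.0, 99.3, 121.2 and 25.2 RPKM in healthy stromal replicates 1 to 4 and 4.39, 3.74, 111.4 and 121.0 RPKM in tumor stromal replicates 1 to 4. CD39 is known as a surface enzyme of endothelial cells. Over these 8 libraries the order of Entpd1 followed that of the endothelial list closely. The 7 neutrophil markers also split the tumor libraries, at 41.7 and 8.55 RPKM in replicates 1 and 2 and 1564 and 529.0 RPKM in replicates 3 and 4. In healthy stroma they were at 6.29 to 45.2 RPKM, with 20.28 RPKM in replicate 4. Whether endothelial or neutrophil content set the level of Entpd1 was not tested. The fibroblast list did not run in parallel, since healthy replicate 4 had its highest level at 2313 RPKM and the others 553.8 to 777.3 RPKM, while all tumor stromal libraries had 10.7 to 114.5 RPKM.

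**Figure D5:**
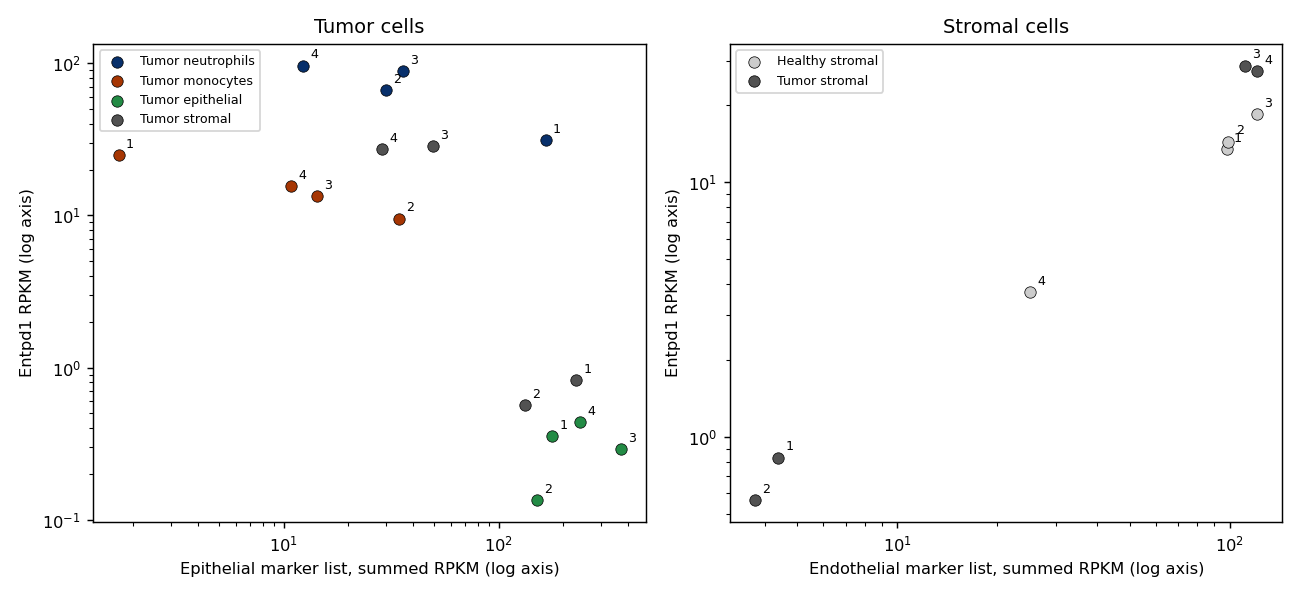
Entpd1 RPKM of each library is plotted on log axes against the summed RPKM of 10 epithelial markers in tumor cells (left) and of 5 endothelial markers in stromal cells (right); numbers are replicates. Tumor stromal replicates 1 and 2 lie beside tumor epithelial cells on the left and at the low end on the right.

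Tumor stroma was compared with healthy stroma under this difference in makeup. Slc29a1, the ENT1 transporter that carries adenosine across the membrane, was at 0.519, 0.631, 0.889 and 0.719 RPKM in tumor stroma and 1.86, 2.61, 1.88 and 3.72 RPKM in healthy stroma. All healthy libraries were above all tumor libraries, and the log2 fold change was -1.53 ± 0.34 (adjusted p = 0.0257). It was the 1 gene called of 9 tested, where 8.41% of 19082 genes were called. The call lay close to the fold threshold and was lost without healthy stromal replicate 2 (adjusted p = 0.0607) or 4 (log2 fold change -1.26), without tumor stromal replicate 1 (adjusted p = 0.0671) or 2 (adjusted p = 0.0597), and without both tumor libraries of doubtful purity (log2 fold change -1.38, adjusted p = 0.0973). Nt5e was at 0.311, 0.530, 1.30 and 1.47 RPKM in tumor stroma and at 0.406, 0.135, 0.318 and 0.0650 RPKM in healthy stroma. Its log2 fold change of 2.33 ± 0.65 did not pass (adjusted p = 0.0553), but it passed without tumor replicate 1 (2.63, adjusted p = 0.0433) and without both doubtful libraries (2.90, adjusted p = 0.0374). Entpd1 did not differ detectably, with a log2 fold change of 0.48 ± 1.10 (adjusted p = 0.828), or 1.44 (adjusted p = 0.163) without the same 2 libraries. Dpp4 was at 4.77 RPKM in healthy stromal replicate 4 and at most 0.261 RPKM in the other 3 healthy libraries, and its log2 fold change was -0.43 (adjusted p = 0.860) with that library and 2.65 (adjusted p = 0.0347) without it. Adora3 had too few counts to be tested with all libraries and was called without the 2 doubtful ones (3.84, adjusted p = 0.0230). The 2 tumor libraries left in that fit, replicates 3 and 4, held 1564 and 529.0 RPKM over the 7 neutrophil markers, against 41.7 and 8.55 RPKM in replicates 1 and 2 and 6.29 to 45.2 RPKM in healthy stroma, and the part of neutrophil transcripts in the call was not tested. With the replicate number as a block, Slc29a1 was not called (-1.26, adjusted p = 0.0546) and Dpp4 was (2.75, adjusted p = 0.0483).

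Against tumor stroma, tumor neutrophils were higher in Entpd1 (3.34 ± 0.96, adjusted p = 0.0227), Adora2b (3.04 ± 0.66, adjusted p = 0.00451) and Nt5e (2.00 ± 0.55, adjusted p = 0.0186), at a background of 16.1% called. The call of Adora2b held without each library. That of Entpd1 was lost without tumor neutrophil replicate 2 (adjusted p = 0.0653), and that of Nt5e without tumor neutrophil replicate 2 or 4 or tumor stromal replicate 1 or 2 (adjusted p = 0.0530 to 0.0929). Without the 3 doubtful libraries all 3 were called, with log2 fold changes of 2.64, 2.83 and 1.65 for Entpd1, Adora2b and Nt5e, and with the animal as a block none was (adjusted p = 0.347, 0.0987 and 0.680). In that blocked fit 0 of 19026 genes were called in this comparison by edgeR, and 2732 had an unadjusted p under 0.05. Adora2a was called without tumor neutrophil replicate 1 (2.15, adjusted p = 0.0327) or tumor stromal replicate 4 (2.69, adjusted p = 0.0213), and Slc29a1 without tumor neutrophil replicate 2 (-2.23, adjusted p = 0.0380). Tumor monocytes were higher than stroma in Adora2b (5.48 ± 0.74), Adora2a (3.74 ± 0.74) and P2rx4 (1.93 ± 0.45) and lower in Ada (-2.73 ± 0.93), at a background of 20.3%. The first 3 calls held without each library, and that of Ada (adjusted p = 0.0442) held only in the fits without a tumor neutrophil library and was lost without any tumor monocyte, epithelial or stromal library (adjusted p = 0.0512 to 0.0906). With the animal as a block, Adora2b stayed called (6.25, adjusted p = 0.0148), and Adora2a, P2rx4 and Ada did not (adjusted p = 0.118, 0.135 and 0.166).

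Epithelial and stromal cells of the tumor differed in 2 genes, Entpd1 (-5.45 ± 1.07, adjusted p = 0.00925) and Adora3 (-6.19 ± 1.60, adjusted p = 0.0373), both higher in stroma, at a background of 4.09%. Tumor stromal replicates 3 and 4, where Entpd1 was high, were also the stromal libraries with 1564 and 529.0 RPKM of neutrophil markers, against 0.951 to 4.53 RPKM in tumor epithelial cells, and the part of neutrophil transcripts in these 2 differences was not tested. Without the 3 doubtful libraries 5 genes were called, since Nt5e (-1.89), Adora2a (-2.09) and P2rx7 (-3.54) passed as well. The call of Adora3 was lost without any of the tumor epithelial libraries or tumor stromal replicate 3 or 4 (adjusted p = 0.0853 to 0.130), and P2rx7 was called without tumor stromal replicate 1 or 2 or tumor neutrophil replicate 2 (-3.18, -3.07 and -2.84, adjusted p = 0.0202, 0.0367 and 0.0124). With the animal as a block, neither Entpd1 (-5.82, adjusted p = 0.0585) nor Adora3 (-6.64, adjusted p = 0.224) was called, and limma-voom and limma on log2(RPKM + 0.1) called neither.

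Tumor epithelial cells, in which Apc is deleted, were compared with healthy colon epithelium. P2rx4, an ATP-gated channel found on the surface and in lysosomes, was lower in the tumor, at 0.576, 0.667, 0.907 and 0.738 RPKM against 2.17, 1.51, 1.87 and 0.418 RPKM. Healthy replicate 4 lay below all tumor libraries on this scale, so the groups overlapped. Mitochondrial genes took 83.9% of the counts of that library, 48.6% to 67.4% in the other healthy and 46.3% to 60.5% in the tumor epithelial libraries, and the part of this share in the difference was not tested. The log2 fold change from counts was -1.63 ± 0.25 (adjusted p = 0.00101), and P2rx4 was the 1 gene called of 8 tested, where 15.4% of 16085 genes were called. Without healthy replicate 1 the log2 fold change was -1.41 and under the fold threshold. RPKM and counts gave different pictures here, since limma on log2(RPKM + 1) gave a log2 difference of -0.47 (adjusted p = 0.272). Dpp4, the brush-border peptidase CD26, had a log2 fold change of -0.90 ± 0.30 (adjusted p = 0.0572). Ada was at 1.26, 1.42, 2.26 and 1.38 RPKM in tumor and 0.123, 0.926, 0.784 and 0.259 RPKM in healthy epithelial cells. Although its libraries did not overlap, its log2 fold change of 0.91 ± 0.50 did not pass (adjusted p = 0.234). Adora2a and Adora3 had too few counts to be tested.

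In blood, tumor-bearing and healthy mice were compared to ask whether circulating cells already differ. None of the 6 genes tested in neutrophils was called by edgeR, where 4.01% of 13361 genes were called, and Entpd1 and Nt5e had an unadjusted p under 0.05. DESeq2 and limma-voom called none either. Entpd1 was lower in every tumor-bearing library, with a log2 fold change of -0.44 ± 0.15 (adjusted p = 0.117), and Nt5e had 1.33 ± 0.50 (adjusted p = 0.151). The 7 neutrophil markers summed to 15510 to 20230 RPKM in tumor-bearing and 3748 to 8559 RPKM in healthy blood neutrophils. The 6 macrophage markers were at 1.95 to 4.30 and 5.34 to 9.46 RPKM. Healthy replicates 1 and 2 had 221.1 and 225.2 RPKM of 4 platelet markers, replicates 3 and 4 had 1.731 and 10.16 RPKM. The part of these measures was not tested. Dpp4, Adora2a, Adora2b and Slc29a1 were too low in blood neutrophils to be tested. In monocytes Dpp4 was the 1 gene called of 10, and was among the 0.209% of 15313 genes called. It was at 9.56, 5.44, 4.45 and 6.21 RPKM in healthy and at 1.98, 1.2, 1.44 and 1.71 RPKM in tumor-bearing blood monocytes. The groups were well apart, with a log2 fold change of -1.92 ± 0.26 (adjusted p = 0.0226). The call was lost without healthy replicate 1 or any tumor-bearing replicate (adjusted p = 0.0662 to 0.107), where the log2 fold change stayed between -2.0 and -1.73. Dpp4 also marks T cells, whose 6 markers summed to 0.334 to 1.87 RPKM in healthy and 0.208 to 0.850 RPKM in tumor-bearing blood monocytes, and their part in the difference of Dpp4 was not tested. With the 40 libraries in 1 fit Dpp4 was not called (adjusted p = 0.574). Going on to tumor monocytes, Dpp4 was at 0.382, 1.11, 0.229 and 0.772 RPKM.

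Adora3, a receptor that lowers cyclic AMP, was highest in blood neutrophils, with means of 0.800 ± 0.407 RPKM in tumor-bearing and 0.714 ± 0.152 RPKM in healthy mice. It shares its locus and strand with Tmigd3, which was at 1.07 and 1.60 RPKM in the same groups, and reads of the 2 genes may have been split between them, so its values are uncertain. Antisense genes overlap Dpp4 and Slc29a1, and 2 processed pseudogenes lie within Entpd1. P2rx4 had nearly equal means in tumor and healthy blood monocytes (2.86 and 2.85 RPKM).

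Of 33 further genes of the pathway, 32 were matched and 17 to 28 passed the count filter in a comparison. In tumor against blood neutrophils 3 of 20 rose and 1 fell, where 16.3% of all genes were called. Gja1, a connexin that can release ATP, rose by 4.55 ± 0.92 (adjusted p = 0.00704), Adora1, the receptor that opposes A2 signaling, by 2.51 ± 0.65 (adjusted p = 0.0219) and P2ry2, a receptor for ATP and UTP, by 1.71 ± 0.44 (adjusted p = 0.0222) on the log2 scale. P2rx1, an ATP-gated channel of blood cells, had a log2 fold change of -4.24 ± 0.99 (adjusted p = 0.0146). It had at most 4 counts in tumor and 49 in blood neutrophil libraries. Platelet markers were higher in these blood libraries, and their part in the fall of P2rx1 was not tested. Of the genes named here, P2ry2 was the most abundant, at 4.56 ± 1.33 RPKM in tumor and 1.43 ± 0.51 RPKM in blood neutrophils. The others did not exceed 0.654 RPKM on average. The calls of Adora1 and P2ry2 were lost without blood replicate 1, 2 or 3 or tumor replicate 3 or 4, and that of Adora1 also without blood replicate 4 (adjusted p = 0.0506 to 0.0745). In tumor against blood monocytes 4 of 20 rose and 0 fell, at a background of 11.7%, namely Gja1 (8.10 ± 1.12), P2ry2 (3.35 ± 0.74), the UDP-glucose receptor P2ry14 (2.90 ± 0.58) and the NAD-cleaving surface enzyme Cd38 (2.06 ± 0.60). Gja1 had at most 1 count in the blood monocyte libraries, so its fold is not fixed by the data, and the call of Cd38 was lost without tumor replicate 1, 3 or 4 or blood replicate 1, 2 or 4 (adjusted p = 0.0575 to 0.0970). Gja1 was at 6.92 RPKM on average in tumor stroma, against 0.457 RPKM in tumor monocytes and 0.272 RPKM in tumor neutrophils, and the part of other cells in its rise was not tested.

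In blood of tumor-bearing against healthy mice, 2 of 17 pathway genes rose in neutrophils, Adora1 by 3.12 ± 0.58 and the vesicular ATP transporter Slc17a9 by 1.56 ± 0.34 on the log2 scale, at a background of 4.01%. In monocytes, of 19 genes and at a background of 0.209%, Bst1, another NAD-cleaving surface enzyme, rose by 2.12 ± 0.27 and P2ry14 had a log2 fold change of -3.53 ± 0.50. Single libraries decided several of these calls: Adora1 was lost without healthy replicate 3 (adjusted p = 0.0583), Slc17a9 without tumor-bearing replicate 1 or 2 or healthy replicate 1, 3 or 4 (adjusted p = 0.0539 to 0.0914), P2ry14 without healthy replicate 1 or any tumor-bearing replicate (adjusted p = 0.0662 to 0.118) and Bst1 without tumor-bearing replicate 3 or 4 or healthy replicate 1 (adjusted p = 0.0859 to 0.0958). Adora1 was thus called in neutrophils in blood and again in the tumor, from 0.0140 RPKM in healthy blood to 0.121 RPKM in tumor-bearing blood and 0.654 RPKM in tumors. The median log2 fold change of the pathway genes was 0.33 in neutrophils and 0.23 in monocytes, against -0.01 and 0.02 over all genes.

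In tumor against healthy epithelium 2 of 23 genes of the pathway rose and 6 fell, where 15.4% of all genes were called, led by the nucleotidase Entpd3 (6.72 ± 1.07), the phosphatase Alpl (4.57 ± 0.95), Cd38 (-3.97 ± 0.49) and Slc17a9 (-2.92 ± 0.61). Cd38 was at 0.547 RPKM in tumor and 5.27 RPKM in healthy epithelium, and Entpd3 at 0.670 and 0.00228 RPKM. Entpd3 and Alpl had at most 3 and 1 counts in the healthy libraries, so their folds are not fixed by the data. In tumor against healthy stroma 2 of 28 rose and 6 fell, at a background of 8.41%, led by Entpd3 (6.01 ± 0.61), Entpd2 (-5.19 ± 0.67), Entpd8 (4.74 ± 1.04) and Enpp3 (-3.92 ± 0.60). Entpd2, an enzyme that favors ATP over ADP, was at 0.223 RPKM in tumor and 10.1 RPKM in healthy stroma. Entpd3 was at 0.542 RPKM in tumor and 0.0101 RPKM in healthy stroma, and at 0.670 RPKM in tumor epithelial cells and 1.29 RPKM in tumor neutrophils. The part of other cells in its stromal rise was not tested. Entpd8 was at 0.502 RPKM in tumor epithelial cells and 0.269 RPKM in tumor stroma, whose libraries also carried epithelial markers. Its call in stroma was lost without tumor replicate 2 or healthy replicate 1, 2 or 3 (adjusted p = 0.0519 to 0.0806) and without both doubtful tumor libraries.

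Genes with the most similar pattern to 3 of the members were sought among 13958 genes by Pearson's r of log2(RPKM + 1) over the 40 libraries, which share cell types, animals and depth, so r is a description only. Entpd1 was most like Antxr2 (r = 0.947), Stat4 (r = 0.930) and Fas (r = 0.922). Nt5e was most like Dusp16 (r = 0.909) and the predicted genes Gm4764 (r = 0.887) and Gm4985 (r = 0.886). Adora2b was most like Havcr2 (r = 0.915), which encodes the checkpoint receptor TIM-3, Serpinb8 (r = 0.910) and Malt1 (r = 0.907). Havcr2 was at 33.9 RPKM in tumor monocytes and 2.28 RPKM in their blood counterparts, and Dusp16 at 37.1 RPKM in tumor and 2.56 RPKM in blood neutrophils.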

How the data were processed

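RNA of sorted cells was amplified (NuGEN Ovation V2) and sequenced from TruSeq Nano libraries. The authors mapped reads to mm10 and deposited estimated counts per Ensembl gene, unscaled, and RPKM, scaled by gene length and mapped reads, both from HTSstation with Bowtie2 cited. The annotation release, strand setting and treatment of multi-mapping reads are not given in the sources used here, so overlapping genes may share reads, and amplification adds noise that counts do not show. The deposited counts are estimated counts, 99.6% of the nonzero values not whole, and were rounded before testing. Totals of 10716879 to 38002138 per library (median 16337533) set the counting precision.

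Groups came from the group label. Members and lists were chosen with earlier results of these data known. Genes named beyond the members were, per comparison, the pathway genes called with the largest fold, up to 4, and the 3 genes most like each of Entpd1, Nt5e and Adora2b. Differences were tested by edgeR 4.0.16 (TMM, filterByExpr, quasi-likelihood) in R 4.3.3 on the libraries of the groups compared, over all genes, with calls at adjusted p under 0.05 and absolute log2 fold change above 1.5. The 4 tumor cell types were fitted together, as were the 4 blood and tumor myeloid groups for the interaction. Standard errors of edgeR's log2 fold changes were derived from its test, as the absolute log2 fold change over the square root of the F statistic. The procedure was tested on simulated data. Alternatives were DESeq2 1.42.0, limma 3.58.1 (voom, which the study names, and log2(RPKM + 1 or 0.1)), other filters and scalings, blocks, 1 fit of all 40 libraries and leaving out libraries. Titles name the animal, which ties some tumor and blood libraries together, and this was used as a block within tumors and, chosen after the data were seen, for the interaction and between blood cells. Tumor and blood neutrophils shared 1 animal, as did tumor and blood monocytes, so these pairs could not be fitted with that block. Tumor stromal replicates 3 and 4 carry the same replicate number in their labels. Promoter sequences are those of RefSeq on GRCm38.p6.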

Additional observations from a re-analysis of the deposited data

Results flagged for a closer look

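Of 53 groups of 4 libraries with a mean of at least 0.5 RPKM, 6 held a library far above the other 3 by Dixon's test, where chance flags about 1 in 20 groups. Ada stood out in tumor neutrophil replicate 2 at 6.56 RPKM, in blood monocyte replicate 2 of tumor-bearing mice at 2.06 RPKM and in tumor epithelial replicate 3 at 2.26 RPKM. Dpp4 reached 4.77 RPKM in healthy stromal replicate 4. P2rx7 and Slc29a1 reached 11.9 and 2.50 RPKM in the same library, healthy blood monocyte replicate 2.

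The blood-to-tumor difference of P2rx7 differed between neutrophils and monocytes by 3.91 on the log2 scale, tested as an interaction. Ada was higher in every tumor than every healthy epithelial library (log2 fold change 0.91) and lower in every tumor than every healthy stromal library (log2 fold change -0.66), and this difference between the cell types was not tested.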

How the results depend on the processing

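Counts of members called moved by more than 1.5 times in 43 of 173 alternatives that left out no single library. Against 4 in tumor against blood neutrophils, 2 were called with no filter, with at least 10 counts in every library, with limma on log2(RPKM + 1) and with the replicate number as a block. In the 6 comparisons of 1 cell type between sources, the replicate numbers did not pair the libraries (correlations -0.113 to 0.211). Among the counts of the other comparisons, the replicate block moved that of tumor epithelial against stromal cells, from 2 to 0, and changed calls elsewhere without moving a count this far. Some libraries within tumors or blood come from the same animal by title, for which the animal block stands. No filter and no mitochondrial genes each gave 3 between tumor neutrophils and monocytes (main 5).

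With limma on log2(RPKM + 1), which shrinks low genes, the count was 2 in tumor against blood monocytes (main 4), 0 in blood monocytes, epithelial cells, stroma, the interaction (main 1 each) and epithelial against stromal cells, 3 between blood cells (main 7), 1 between tumor neutrophils and monocytes, epithelial cells (main 6) or stroma (main 3), 3 between tumor monocytes and epithelial cells (main 8) and 2 between tumor monocytes and stroma (main 4). The interaction then reversed for Nt5e (0.10) and Adora2b (-1.16), and without tumor neutrophil replicate 2 the difference of Ada between tumor and blood neutrophils reversed (-0.19, and -0.19 to 2.27 over the libraries left out). A minimum of 10 counts in every library, which tests fewer genes, gave 0 for the interaction, 3 between blood cells, and in the tumor comparisons, in the order neutrophils against monocytes, epithelial and stromal cells, monocytes against epithelial and stromal cells, and epithelial against stromal cells, 3, 2, 1, 2, 1 and 1.

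Limma-voom gave 0 in stroma, the interaction and epithelial against stromal cells, and 5 between tumor neutrophils and stroma. DESeq2 gave 2 in stroma and 4 for the interaction. A single fit of all 40 libraries gave 0 in blood monocytes and 3 for the interaction, and limma on log2(RPKM + 0.1) gave 0 between epithelial and stromal cells. The animal as a block gave 2 between tumor neutrophils and monocytes, 0 between neutrophils and stroma, 1 between monocytes and stroma and 0 between epithelial and stromal cells, and, chosen after the data were seen, 0 for the interaction. Without the doubtful libraries 2 were called in stroma and 5 between epithelial and stromal cells. The cause of these moves was not tested beyond what is stated.

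Leaving out 1 library gave 1 to 5 calls in tumor against blood neutrophils, 4 to 5 in monocytes, 0 to 0 in blood neutrophils, 0 to 1 in blood monocytes, epithelial cells and stroma, 0 to 3 for the interaction, 6 to 7 between blood cells, and 3 to 5, 5 to 7, 2 to 4, 6 to 8, 3 to 4 and 1 to 3 in the tumor comparisons in the order above. The group with the highest level stayed for 9 to 10 of the 10 genes. TMM-scaled counts moved it for Ada alone, from healthy stroma to tumor neutrophils. Depth limits Adora2b, Adora2a and Slc29a1 in blood neutrophils and Adora3 in epithelial cells, where few counts were seen.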
